A study of Homo sapiens with 3 samples.

Results

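The genes described here encode the aminoacyl-tRNA synthetases, the enzymes that join each amino acid to its tRNA. They were chosen by name among protein-coding gene models on chromosomes, which gave 37 of 67008 gene models in the table. Of these, 20 encode the cytosolic enzymes, among them KARS and GARS, which each supply both compartments, and 17, with names ending in 2, encode the mitochondrial enzymes. Of the 37, 34 had enough counts to be tested, 19 cytosolic or dual and 15 mitochondrial. The rule uses names and no measured value.

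Messenger RNA, enriched by poly(A) selection, was sequenced from HEK293T cells, an established line derived from human embryonic kidney that expresses SV40 large T antigen. All cells were infected with lentivirus at 5 particles per cell in 8 µg/mL polybrene and were labelled 72 hours, so infection and vector backbone were common to every group. The control group was 1 library, labelled wild type, from cells given the pLKO.1 vector. The DDX24 knockdown group was 2 libraries from cells given pLKO.1 with a short hairpin RNA, shDDX24-1 (hairpin 1) in one and shDDX24-2 (hairpin 2) in the other. The target, DDX24, is an RNA helicase of the DEAD-box family, studied in this series as a regulator of heme oxygenase 1. Each construct has 1 library, and whether any infection was repeated is not labelled. Every p-value therefore reflects only the spread between the 2 knockdown libraries. It holds the difference between hairpins as well as any between infections, cultures or library preparations, and these cannot be told apart. That spread was taken partly from each gene and partly from a trend over all genes.

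The libraries held 36738685 to 52198744 counts. DDX24 was listed at 0 counts in all 3 libraries, control included, so the hairpin labels could not be tested on the gene they target. The 8 HEK293T markers were present in the control, at 1.27 (PAX2) to 334 (VIM) CPM (counts scaled to library size). Of 14 markers of immune, liver, fibroblast and endothelial cells, 3 reached 1 CPM in the control, COL1A1 and COL1A2 of fibroblasts among them, and 1 (CD3E) was at 0 in every library. Summed by cell type over those with enough counts to be tested, they were at 0.19 to 22.5 CPM in the control. With the hairpins the sums were 0.05 to 26.7 CPM. Only 1 of the 3 endothelial markers was tested, so the lowest sums are of that gene alone. In such bulk RNA, fewer cells of a type and less RNA per cell cannot be told apart.

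Each synthetase first activates its amino acid with ATP and then transfers it to the end of the matching tRNA, and several enzymes also remove wrongly attached amino acids. The enzymes fall into class I and class II by the fold of the catalytic domain. In animal cytoplasm several of them sit in the multi-tRNA synthetase complex, held together by the scaffold proteins AIMP1, AIMP2 and EEF1E1. Mitochondria translate their own mRNAs with a separate set of enzymes, all encoded in the nucleus and imported. When amino acids are scarce, uncharged tRNA activates the kinase GCN2, and the transcription factor ATF4 then induces many of the cytosolic synthetase genes.

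Relative to the control, synthetase mRNAs had log2 ratios between -0.37 and 0.31 in the knockdown libraries. Values given below as 3 numbers are in the order control, hairpin 1, hairpin 2. Together the members took 0.675%, 0.644% and 0.659% of all counts. The fitted log2 fold changes, knockdown against control, were lowest for CARS2, at -0.23, and reached 0.23 for PARS2, with standard errors over the members of 0.13 to 0.27. By edgeR quasi-likelihood, fitted to 17713 genes at once, none of the 34 passed (adjusted p = 0.999 for each), while 0.0113% of genes were called lower and 0% higher. At an unadjusted p under 0.05 there were 0 members, against 3.9% of all genes tested, and 0 with DESeq2 or limma-voom. The fit has 1 residual degree of freedom, so a p that misses the threshold does not show that levels were alike.

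**Figure D1:**
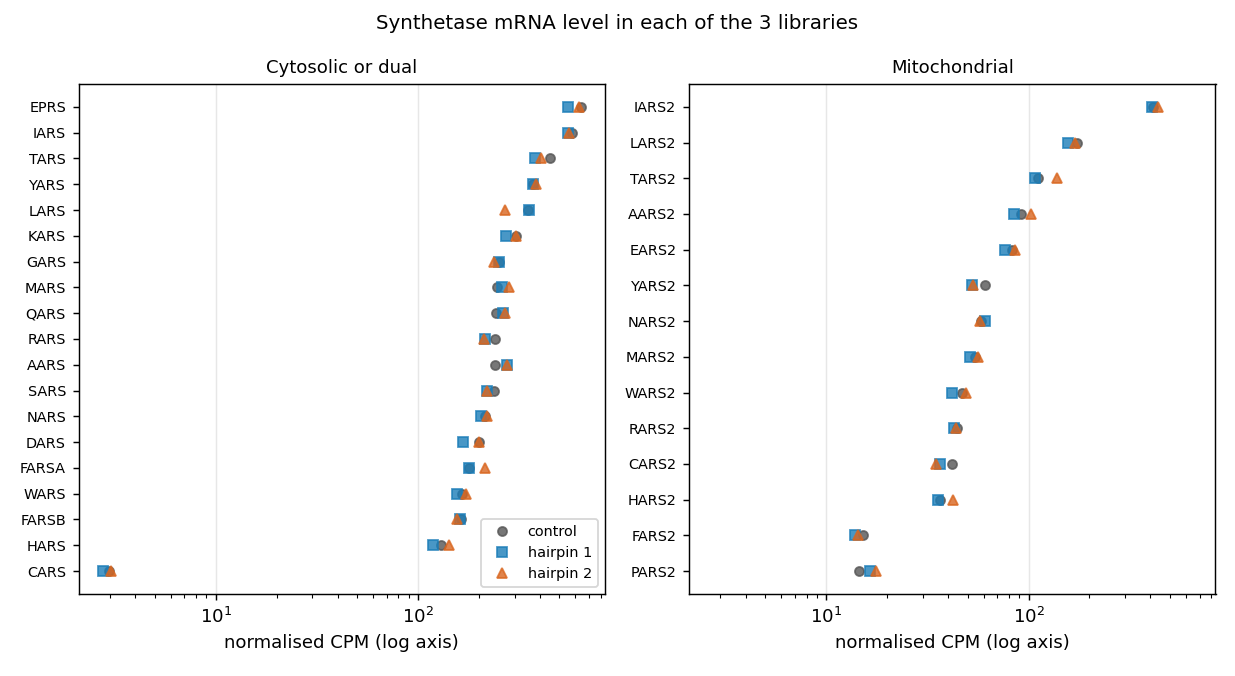
Normalised CPM (log axis) of 33 of the 34 tested synthetase genes in the control, hairpin 1 and hairpin 2 libraries, 1 point per library, with cytosolic or dual genes on the left and mitochondrial genes on the right. The 3 points of a gene lie close together beside the range between genes, which in the control runs from 2.95 CPM (CARS) to 639 CPM (EPRS), not corrected for transcript length.

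By sign, 13 of the 34 were lower than the control with both hairpins, against 28.5% of the 10995 genes that reached 5 CPM in some library, and 6 were higher with both, against 34.4%. Of the 34, 33 reached that level. The other 15 had opposite signs. Both ratios use the same control library, so a like sign is a description only. The median log2 ratio was -0.07 with hairpin 1 and 0.04 with hairpin 2, where those 10995 genes had medians of 0.004 and 0.02. With library totals in place of the TMM scaling used here the members' hairpin 2 median was -0.002, and that of all genes tested went from -0.004 to -0.05. The SD of the members' log2 ratios was 0.12 with hairpin 1 and 0.16 with hairpin 2, against 0.20 and 0.25 over those 10995 genes. The members are more abundant than most of these, with a median of 176 CPM in the control against 41.1, and the part of abundance in their narrower spread was not tested.

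Counting error was small for these abundant mRNAs, which had 515 to 33780 counts per library apart from CARS. The 95% exact binomial interval of the counts lay below 0 with both hairpins for 7 members, against 12.3% of genes at 5 CPM or more, and above 0 with both for 5, against 15.4%. These intervals cover counting error only, not the spread between cultures, and they narrow with depth, so a highly expressed gene meets this rule at a smaller difference. The 7 were EPRS, IARS, RARS, SARS, TARS, CARS2 and YARS2, and the 5 included AARS, MARS, QARS and PARS2.

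**Figure D2:**
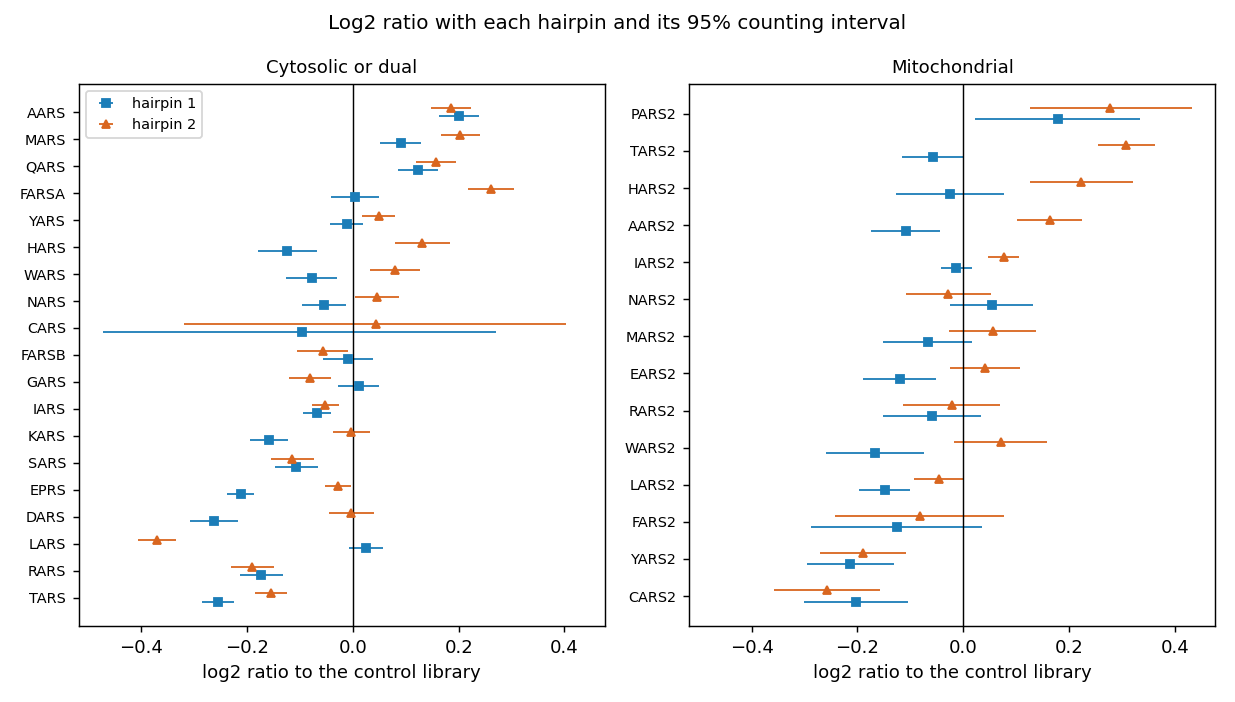
Log2 ratio to the control for 33 of the 34 tested synthetase genes with hairpin 1 (squares) and hairpin 2 (triangles); bars are 95% exact binomial intervals of the counts and cover counting error only. Genes are ordered by fitted log2 fold change, from TARS to AARS among cytosolic genes and from CARS2 to PARS2 among mitochondrial genes, and LARS is the gene whose hairpins lie farthest apart.

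Among the cytosolic enzymes, 8 of 19 were lower and 4 higher with both hairpins. The median log2 ratio of the set was -0.07 with hairpin 1 and -0.003 with hairpin 2. Their summed level was 95.3% of the control for hairpin 1 and 99.0% for hairpin 2. The sum over all genes tested was 100.6% and 103.2% on the same scale. The lowest fitted value belonged to TARS (ENSG00000113407.13, GRCh38 chromosome 5, 33440696 to 33469539, plus strand), which charges tRNA with threonine. TARS was at 451, 378 and 405 CPM, a log2 fold change of -0.20 ± 0.13 (SE). Both knockdown libraries were below the control, by a difference that did not pass the test.

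AARS (ENSG00000090861.15, chromosome 16, 70252295 to 70289543, minus strand), the alanine enzyme, had the highest fitted value of the cytosolic set. It was at 241, 277 and 274 CPM, a log2 fold change of 0.19 ± 0.13 (SE). Here both knockdown libraries were above the control and within 3 CPM of each other. RARS, the arginine enzyme, showed the opposite pattern, at 241, 214 and 212 CPM. SARS, the serine enzyme, was at 237, 220 and 219 CPM. None of these passed the edgeR test. By structural class, class I had 7 of 17 tested genes below the control and 2 above it with both hairpins, and class II had 7 of 18 below and 4 above; EPRS holds an enzyme of each class and counts in both.

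The multi-tRNA synthetase complex contains 8 of the members, EPRS, IARS, LARS, QARS, MARS, KARS, RARS and DARS. Of these, 5 were lower and 2 higher with both hairpins, and the median log2 ratios were -0.11 and -0.02. The other 11 tested cytosolic genes had 3 lower and 2 higher, with medians of -0.05 and 0.05. EPRS, which joins the glutamate and proline enzymes in a single chain, had the most counts of any member. It was at 639, 552 and 627 CPM, so the hairpin 1 library stood lower while hairpin 2 was near the control. QARS, the glutamine enzyme, was at 242, 264 and 270 CPM, and MARS, the methionine enzyme that also charges the initiator tRNA, at 245, 261 and 282. Both were higher than the control in each knockdown library. The MARS gene model overlaps DDIT3, a stress-response gene on the opposite strand, over 982 bases. DDIT3 had 225 counts in the control against 12952 for MARS. In all, 12 tested members overlap a gene model with at least 100 counts in the control. Whether counting used strand is not given in the sources used here, and reads in such stretches cannot then be assigned.

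The scaffold proteins of the complex did not share a direction. AIMP2 was at 80.04, 74.1 and 75.7 CPM. AIMP1 was at 110, 115 and 119 CPM, and EEF1E1 at 22.4, 23.1 and 23.0. None passed the edgeR test (adjusted p = 0.999 for each).

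LARS, the leucine enzyme and a component of the leucine-sensing route to mTORC1, differed most between the hairpins. It was at 348, 354 and 269 CPM. The hairpin 2 library stood below the other two. The log2 ratio of hairpin 2 to hairpin 1 was -0.39 (95% exact binomial interval, -0.43 to -0.36), with 1 library each and no replicate check. DARS, the aspartate enzyme, had the reverse arrangement, at 200, 167 and 200 CPM. FARSA, the catalytic subunit of the phenylalanine enzyme, was at 178, 179 and 214 CPM, while FARSB, its partner subunit in the same complex, was at 162, 161 and 156. The subunits of that enzyme therefore had log2 ratios of 0.26 and -0.06 with hairpin 2.

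A shift between hairpins ran through much of the family. The log2 ratio was higher with hairpin 2 than with hairpin 1 for 26 of 34 members, against 54.8% of genes at 5 CPM or more, and the median difference was 0.10 against 0.02. With hairpin 1, 25 of 34 members were below the control, against 49.1% of those genes, and with hairpin 2, 16 were, against 45%. The counting interval of the difference lay above 0 for 19 members (33.6% of those genes) and below 0 for 2, LARS and GARS (25.6%). Such intervals narrow with depth, and the members are more abundant. The shift was not particular to the family. Genes of tRNA cleavage, ligation, end addition and export had a median difference of 0.12, and tRNA modification genes 0.06. Each hairpin has 1 library, so a difference between hairpins and a difference between cultures cannot be told apart. The members' GC content moved with the ratio: across the 34 genes Pearson's r between the GC content of the longest transcript and the log2 ratio was 0.22 with hairpin 1 and 0.43 with hairpin 2. Over all genes tested with a GC value, with no minimum of 5 CPM, it was 0.14 and 0.06. All genes tested had a median of 12.8 CPM in the control, against 176 for the members. These genes share libraries, depth and base composition, and the part of GC content in the ratios was not tested.

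**Figure D3:**
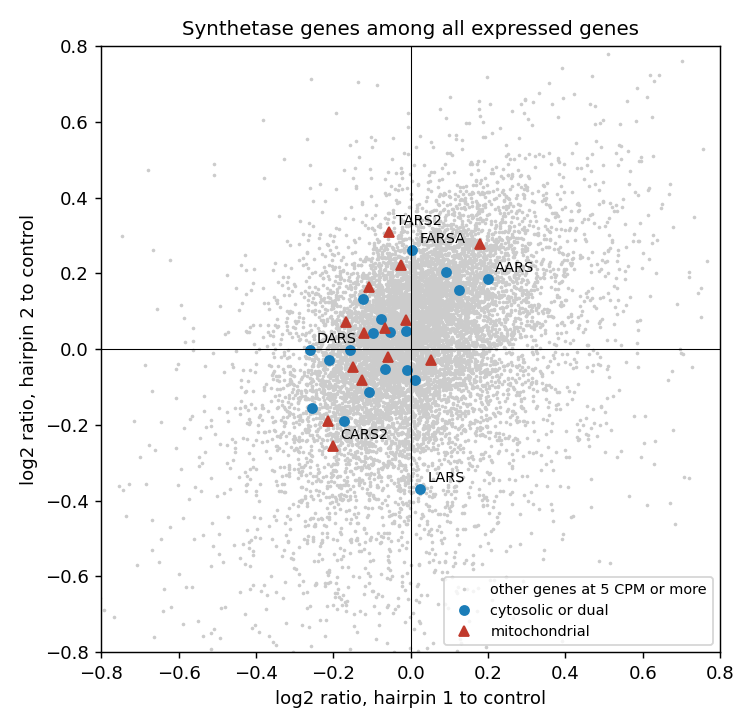
Log2 ratio to the control with hairpin 1 (horizontal) and hairpin 2 (vertical) for the synthetase genes and, in grey, genes at 5 CPM or more; both axes share the control library, and genes beyond 0.8 on either axis are not drawn. Synthetase genes lie near the centre; LARS is low with hairpin 2 alone, and TARS2 and FARSA are high with hairpin 2 alone.

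The cytosolic genes that ATF4 is known to induce were examined as a list of 13, of which 12 were tested. Of these, 4 were lower and 2 higher with both hairpins, and the medians were -0.06 and 0.01. The 7 other tested cytosolic genes had medians of -0.12 and -0.003. The ATF4-type element, the amino acid response sequence TGATGNAA, was searched on both strands of RefSeq promoter windows (GRCh38.p14, 250 bases before to 50 after each start). Windows were found for 30 of the 37 members and those without one include DARS, LARS, VARS, YARS, AARS2 and VARS2. The element was present in 8 of 39 member windows (20.5%), 1 per gene in 8 genes, against 3.62% of all 35116 windows. The stricter form TGATGCAA, which the first contains, was in 6 member windows (15.4%) against 0.866% of all windows. The 30 bases around each match are shown because 7 of the 8 are cytosolic enzymes and the letters can be compared; capitals mark the element or its reverse complement, read along the gene's own strand.
AARS, chr16:70289675-70289704, minus strand: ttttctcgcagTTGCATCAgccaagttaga
CARS, chr11:3057407-3057436, minus strand: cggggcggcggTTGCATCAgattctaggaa
GARS, chr7:30594834-30594863, plus strand: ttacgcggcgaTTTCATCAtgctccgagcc
IARS, chr9:92293692-92293721, minus strand: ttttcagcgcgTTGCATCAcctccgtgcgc
MARS, chr12:57488053-57488082, plus strand: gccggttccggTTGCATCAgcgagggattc
NARS, chr18:57621804-57621833, minus strand: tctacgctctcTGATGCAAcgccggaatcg
TARS, chr5:33440956-33440985, plus strand: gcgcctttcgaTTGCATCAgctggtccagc
YARS2, chr12:32756076-32756105, minus strand: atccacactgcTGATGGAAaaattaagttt

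AARS, CARS, IARS, MARS, NARS and TARS carry the stricter form, while GARS and YARS2 have another base at the open position. In CARS, IARS, MARS and TARS the match begins within 13 bases of the transcription start, on the strand opposite to the gene. These genes did not share a direction. Of the 8, 3 were lower with both hairpins (IARS, TARS and YARS2), 2 were higher (AARS and MARS) and 3 had opposite signs. Their log2 ratios ran from -0.25 to 0.20 with hairpin 1 and from -0.19 to 0.20 with hairpin 2. Of the 21 tested members with a window and no match, 9 were lower with both hairpins, 3 were higher and 9 had opposite signs. A match of letters is a description of the window and says nothing of whether a factor bound there.

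ATF4 targets outside the family did not share a direction either, but more lay above the control than below it. Among the 23 tested, 6 lay below and 12 above the control in both knockdown libraries, against 28.5% and 34.4% of genes at 5 CPM or more. The 23 include genes on each side that did not reach that level. The counting interval lay below 0 with both hairpins for 3 and above 0 for 7, against 12.3% and 15.4%. Median log2 ratios were 0.04 and 0.05. None passed the edgeR test, and 1 had an unadjusted p under 0.05. SLC7A11, the cystine transporter, was at 80.5, 60.6 and 48.3 CPM. PYCR1, of proline synthesis, was at 144, 166 and 169 CPM, and TRIB3, a pseudokinase that ATF4 induces, at 15.4, 17.6 and 17.9. PSPH, of serine synthesis, was at 49.7, 43.5 and 40.3 CPM. Among the 4 kinases that phosphorylate the initiation factor eIF2 and the GCN2 activator GCN1, 2 lay below the control and 1 above it in both knockdown libraries. EIF2AK4, the gene of the kinase GCN2, was at 91.8, 88.1 and 88.4 CPM.

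Among the mitochondrial enzymes, 5 of 15 were lower and 2 higher with both hairpins. Their median log2 ratio was -0.07 with hairpin 1 and 0.06 with hairpin 2, and their summed level was 98.3% and 107% of the control. On the same scale the sum over all genes tested was 100.6% and 103.2%. As a share of all counts the mitochondrial set took 0.149%, 0.146% and 0.155%. PARS2, the mitochondrial proline enzyme, had few counts, at 14.5, 16.4 and 17.6 CPM. CARS2, the mitochondrial cysteine enzyme, was at 41.8, 36.4 and 35.0 CPM, with a log2 fold change of -0.23 ± 0.14 (SE), the lowest in the family. YARS2, the mitochondrial tyrosine enzyme, was at 60.8, 52.5 and 53.4 CPM. For each of these 3 genes the knockdown libraries lay on 1 side of the control, and none passed the test. YARS2 overlaps DNM1L, a mitochondrial fission gene on the opposite strand with 8703 counts in the control, over 18161 bases of its gene span. TARS2, the mitochondrial threonine enzyme, was near the control with hairpin 1 and above it with hairpin 2, at 112, 108 and 138 CPM. Its log2 ratio with hairpin 2 was 0.31 (0.25 to 0.36), the highest of any member in either library.

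HARS and HARS2, the cytosolic and mitochondrial histidine enzymes, lie head to head on chromosome 5. Between their RefSeq starts lie 84 bases, with the starts at 140691370 on the minus strand and 140691455 on the plus strand, and their gene models in the table overlap by 108 bases. HARS was at 129, 119 and 141 CPM. HARS2 was at 36.3, 35.7 and 42.4 CPM. In both genes the control lay between the hairpins, and hairpin 2 exceeded hairpin 1 by 0.25 on the log2 scale. The HARS2 model also shares 626 bases on the same strand with ZMAT2, which had 4825 counts in the control.

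To compare levels between genes, CPM was divided by the merged exon length in kilobases from GENCODE release 29. On this scale the median of the cytosolic set was 52.2, 56.1 and 56.9 CPM per kilobase. It fell on a different gene in each library (NARS, QARS and GARS), so these medians do not show a rise. The median log2 ratios of the same genes were -0.07 and -0.003. The median of the mitochondrial set was 17.9, 17.1 and 18.2. EPRS was highest, at 117 CPM per kilobase in the control, followed by IARS2, the mitochondrial isoleucine enzyme, at 99.0. Such an order depends on the length used, as merged exons pool all transcripts of a gene. They span 7401 bases for IARS and 4165 for IARS2, against 4656 and 3560 for the longest transcript. Divided by the latter, IARS would exceed IARS2 in the control. In 13 of 15 pairs for the same amino acid the cytosolic gene exceeded its mitochondrial counterpart in every library, with median ratios of 2.51, 2.51 and 2.16. The exceptions were IARS with IARS2, at a ratio of 0.784 in the control, and CARS with CARS2. CARS has few counts and a copy on another scaffold, so its pair is not comparable, though CARS stays in the cytosolic median.

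**Figure D4:**
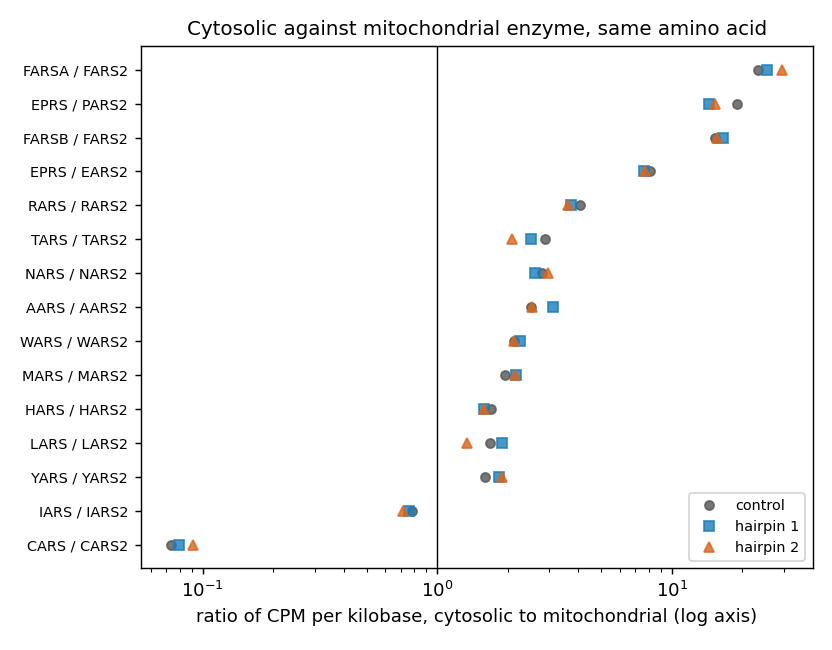
Ratio of CPM per kilobase (log axis) between the cytosolic and the mitochondrial enzyme for the same amino acid in the 3 libraries; the vertical line marks a ratio of 1, and FARSA, FARSB and EPRS enter separate pairs. In 13 of 15 pairs, by merged exon length, all 3 points lie to the right of the line. The pair of CARS and CARS2 is not comparable, because CARS also has a copy on another scaffold. The ratio of TARS to TARS2 is 2.88 in the control library, 2.51 for hairpin 1 and 2.09 for hairpin 2.

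Log2 ratios differed within some of these pairs. EPRS was at -0.21 with hairpin 1 and -0.03 with hairpin 2, and PARS2, its mitochondrial counterpart for proline, at 0.18 and 0.28. TARS was at -0.25 and -0.15, while TARS2 was at -0.06 and 0.31, so these genes lay on opposite sides of the control with hairpin 2 alone. YARS was near the control at -0.01 and 0.05, and YARS2 was at -0.21 and -0.19. No difference between the genes of a pair was tested.

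Mitochondria have no separate glutamine enzyme: EARS2 attaches glutamate to the glutamine tRNA, and the amidotransferase of QRSL1, GATB and GATC converts it. EARS2 was at 83.0, 76.3 and 85.4 CPM. GATC was at 101, 87.8 and 92.3 CPM, and QRSL1 at 53.4, 47.5 and 50.7. Both of these subunits were lower than the control in each knockdown library, while GATB, at 38.0, 35.3 and 39.0 CPM, was not. MTFMT, which formylates the initiator tRNA in mitochondria, was at 22.8, 24.1 and 23.0 CPM. None of the 4 passed the edgeR test (adjusted p = 0.999 for each). The 22 tRNA genes of mitochondrial DNA summed to 13.8, 11.3 and 24.1 CPM by library totals, in libraries whose poly(A) selection captures tRNA poorly.

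Of the 37 members, 3 had no counts. VARS and VARS2, the valine enzymes, and SARS2, the mitochondrial serine enzyme, were listed at 0 counts in all 3 libraries. Each has copies of the same symbol on other scaffolds of the assembly, 6 for VARS, 5 for VARS2 and 1 for SARS2. The copies of VARS2 held 3, 2 and 1 counts and the others 0. On the same strand, SARS2 also shares 15493 bases with another protein-coding model and VARS2 12255 bases with a long noncoding one. How reads in shared sequence were counted is not given, so 0 counts do not show that these mRNAs were absent. CARS, the cytosolic cysteine enzyme, was tested but also has such a copy, and how reads were divided between copies is not given in the sources used here. It had 156, 102 and 113 counts, and its copy on another scaffold had 72, 55 and 61. At 2.95 CPM it was the lowest of the 34, and its levels and ratios are not comparable with those of the other members.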

How the data were processed

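Libraries were made with the MGIEasy kit and read on a DNBSEQ-G400 in pairs of 100 bp, per the labels' protocols. The authors deposited whole-number read counts per gene model, not normalized. The submitters' processing notes name the build GRCh38 (hg38) and the tools STAR 2.7.3a and DESeq2 1.26. How reads were counted, whether by strand, and on which annotation, is not given in the sources used here.

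Counts were filtered with filterByExpr (minimum count 10) and scaled by TMM. The 17713 genes left were fitted in R 4.3.3 with edgeR 4.0.16 (quasi-likelihood) and p-values were adjusted by Benjamini-Hochberg, with a threshold of 0.05. The spread comes from the difference between the hairpins alone, and the single control is taken to vary as they do. The fit moderates each gene's spread toward a trend over all genes. Standard errors and p-values therefore do not rest on that gene's hairpins alone. A standard error is the fitted log2 fold change over the root of its F statistic. Ratios of single libraries, in log2, had a prior count of 2; their intervals are exact Clopper-Pearson intervals. The fit was tested on simulated data with changes larger than any fitted for the members, which says nothing of changes as small as theirs. Alternatives were DESeq2 size factors, library totals, no low-count filter, DESeq2 1.42.0, limma-voom (limma 3.58.1), the legacy fit, an adjusted p of 0.1, a prior count of 0.5, subtraction of a loess fit to GC content and transcript length, and leaving out each hairpin.

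The members and the other gene lists were chosen with earlier results of these data known. All members could be named, but the values of 1 member and 1 marker gene are not reported here; both stay in the counts, medians and sums, and the member is left out of the figures and of the pairs by amino acid. From each other list at most 4 genes are named, by the smaller absolute log2 ratio of the hairpins among genes of like sign at 5 CPM or more, and the scaffold and mitochondrial helper lists are named whole. DDIT3, DNM1L and ZMAT2 are named for their overlap with members and the markers that are present or at 0 for their values, outside that rule.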

Additional observations from a re-analysis of the deposited data

How the results depend on the processing

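No member passed the threshold under any of the 7 alternative fits or thresholds tried. Over all genes the number called lower was 2, and it was 0 with DESeq2 size factors or without the low-count filter, 7 with library totals, and 1 with the legacy fit or limma-voom. With library totals HARS, WARS, YARS and NARS2 changed sign, to log2 fold changes of -0.018, -0.024, -0.0076 and -0.013, and without the low-count filter WARS went to -0.0035; all 4 were within 0.02 of 0 in the TMM fit. The median of the cytosolic set was -0.03 and ranged from -0.07 to -0.003 when either hairpin was left out. That of the mitochondrial set was -0.005 and ranged from -0.07 (hairpin 1 alone) to 0.06 (hairpin 2 alone), so its sign depended on the hairpin. Members below the control numbered 13 with both hairpins, 25 with hairpin 1 alone and 16 with hairpin 2 alone; members above it numbered 6, 9 and 18. After subtraction of the GC and length fit, 9 were lower and 6 higher with both. Without CARS, HARS and HARS2 the counts were 13 and 6. Those exclusions and the counts by single hairpin were chosen after seeing the data. No paired analysis was possible because the groups hold 1 and 2 libraries and share fewer than 2 replicate numbers. Counting error was widest for CARS, with 102 to 156 counts; the other tested members had at least 515 in each library. The spread of the single control library was not measured.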

Other observations

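Genes that make and modify tRNA were examined as further lists. For comparison, 28.5% of genes at 5 CPM or more were lower and 34.4% higher with both hairpins. Some listed genes did not reach that level. Of 21 tested genes of tRNA cleavage, ligation, end addition and export, 6 were lower and 8 higher with both hairpins, with median log2 ratios of -0.02 and 0.10. The lowest named was POP1, the largest protein of RNase P, at 82.9, 64.1 and 70.0 CPM, a log2 fold change of -0.31 ± 0.14 (SE). Other proteins of the same enzyme did not share its direction throughout. POP5 was at 29.2, 34.4 and 34.5 CPM, RPP14 at 54.9, 62.6 and 66.1, and POP7 at 96.8, 108 and 117, all higher with both hairpins, as was RPP25. POP4 was lower with both, at 41.3, 35.0 and 39.7 CPM, and RPP30, RPP38 and RPP40 had opposite signs; these and RPP25 were named after their values were seen. None passed the edgeR test (adjusted p = 0.999 for each).

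Among 34 tested tRNA modification genes 6 lay below and 12 above the control in both knockdown libraries, with medians of -0.05 and 0.05. GTPBP3, of mitochondrial tRNA uridine modification, was at 98.5, 112 and 118 CPM. NSUN3, a mitochondrial tRNA methyltransferase, was at 28.9, 32.3 and 32.6 CPM, and TRMT5, a methyltransferase of the anticodon loop, at 54.9, 49.8 and 47.1. ADAT3, a subunit of the wobble adenosine deaminase, was at 5.49, 6.38 and 6.14 CPM. Of 4 genes whose proteins edit mischarged tRNA or resemble synthetases, 3 were higher with both hairpins and 0 lower. The shares among genes at 5 CPM or more were 34.4% and 28.5%, and the remaining gene did not reach that level. DTD2, a deacylase of mischarged tRNA, was at 22.7, 26.6 and 25.8 CPM. DTD1 was at 9.14, 11.5 and 9.56 CPM, and TARSL2, a second threonine enzyme of the cytoplasm, at 23.5, 23.9 and 27.0. The counting interval lay above 0 with both hairpins for DTD2 alone. None of these passed the edgeR test.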
